A study of Mus musculus with 32 samples.

Results

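The 7 RNA sequencing libraries described here came from meningeal lymphatic endothelial cells (LECs) sorted from untreated 5xFAD mice and from wild-type (WT) mice, and are 7 of the 32 samples of the series. They were chosen by their labels, 3 libraries of 5xFAD genotype without light (replicates 1, 2 and 4) and 4 libraries of WT genotype (replicates 1, 2, 3 and 4). Of the 22337 genes in the deposited table, 7217 reached 1 FPKM (fragments per kilobase of transcript, scaled to the mapped fragments of the library) in at least 3 of the 7 libraries, and these were tested. The study treated mice with light through the skull and measured meningeal lymphatic vessels, behaviour and gene expression, and the comparison of untreated 5xFAD with WT cells asks how this cell population differs in the disease model without that treatment. By the study's methods, the 5xFAD mice were 6-month-old males on a C57BL/6J background, and the WT mice were littermates that did not carry the transgenes. As background, 5xFAD mice carry transgenes, mutant human APP among them, under the Thy1 promoter, which is used to drive expression in neurons, so the sorted cells are not those in which the transgenes are meant to act. Untreated animals in the study were given isoflurane anaesthesia, scalp shaving and indoor lighting in place of the treatment, and the methods do not say whether the WT mice of these libraries were handled in that way. Meninges of 1 mouse per library were digested with collagenase, single live cells negative for CD45 and positive for both CD31 and PDPN were collected by flow sorting, and the lysed cells went into Smart-seq2, which amplifies full-length cDNA from small inputs. Total counts were 21543300, 17335351, 16033774 and 24041104 in WT libraries 1 to 4 and 19699906, 14231402 and 18626562 in 5xFAD libraries 1, 2 and 4. Values listed for a gene below follow this order of libraries.

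Meningeal lymphatic vessels run in the dura along the venous sinuses and carry fluid, solutes and immune cells from the brain's coverings to the cervical lymph nodes. Their endothelium is set apart from that of blood vessels by the transcription factor Prox1, the hyaluronan receptor Lyve1, the surface glycoprotein podoplanin (Pdpn), the VEGF-C receptor Flt4 and the chemokine Ccl21a, whereas Pecam1 (CD31) marks both kinds of endothelium. In Alzheimer's disease models these vessels are studied as a route by which amyloid peptides can leave the brain.

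The labelled cell type was compared with its markers first. Pecam1 (ENSMUSG00000020717, chromosome 11, 106654217 to 106750628 on GRCm38), an adhesion molecule of endothelial junctions, had 342, 189, 325 and 247 FPKM in the WT libraries and 291, 398 and 238 FPKM in the 5xFAD libraries. Every library was thus rich in an endothelial transcript that averaged 14.2 FPKM in the 4 whole WT meninges samples of the series. Pdpn (ENSMUSG00000028583, chromosome 4, 143267431 to 143299564), used as protein to sort the cells, was at 26.7, 0, 11.2 and 0 FPKM in WT and 23.5, 0 and 0 FPKM in 5xFAD. It was absent from 2 WT and 2 5xFAD libraries, although whole WT meninges, where other cell types also make it, averaged 83.7 FPKM. Lyve1 (ENSMUSG00000030787, chromosome 7, 110850607 to 110863239) had 34.0, 0, 2.56 and 0 FPKM in WT and 2.96, 12.2 and 3.6 FPKM in 5xFAD, so that WT replicates 2 and 4 lacked it. Prox1 (ENSMUSG00000010175, chromosome 1, 190118035 to 190170714) had 0, 0, 1.95 and 5.71 FPKM in WT and 0.75, 0 and 0.29 FPKM in 5xFAD, which kept it under the limit for testing. The master regulator of lymphatic identity was therefore above 1 FPKM in only WT replicates 3 and 4, and in WT replicate 2 Prox1, Lyve1 and Pdpn were all at 0. The name LEC is used here as the labels give it.

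Other lymphatic genes were unevenly present. Ccl21a (ENSMUSG00000094686), which draws dendritic cells and T cells into lymphatic vessels, had 6534, 3.54, 4208 and 0 FPKM in WT and 998, 1535 and 4344 FPKM in 5xFAD. Near-identical copies of this gene share reads, so its level is uncertain, but its near absence from WT replicates 2 and 4 was shared by the copy Ccl21d, at 0 in both. Mmrn1, a secreted protein of lymphatic endothelium, had 126, 0.06, 98.4 and 19.7 FPKM in WT and 88.3, 109 and 60.4 FPKM in 5xFAD, lowest again in WT replicates 2 and 4. Flt4, the receptor through which VEGF-C drives lymphatic growth, was detected throughout, at 15.1, 34.4, 30.1 and 30.3 FPKM in WT and 42.0, 26.5 and 81.6 FPKM in 5xFAD, with overlapping groups. Over the 18 lymphatic endothelial markers, 6 were detected in all 7 libraries and 1, Nts, had a count of 0 in all of them. Their summed FPKM was 7630.4, 452, 5168 and 761 in WT and 2036, 2779 and 5212 in 5xFAD, with Ccl21a the most abundant. The list includes Pecam1, which marks both kinds of endothelium and gave 189 FPKM of the sum in WT replicate 2 and 247 in WT replicate 4. The mean log2 sum was 0.69 higher in 5xFAD (exact permutation p = 0.629, two-sided, n = 4 and 3; adjusted p = 0.971 over the 12 marker lists), and it was -0.01 without WT replicate 2, so that this library set the direction. In bulk samples of sorted cells, fewer cells of a type and less RNA per cell cannot be told apart.

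**Figure D1:**
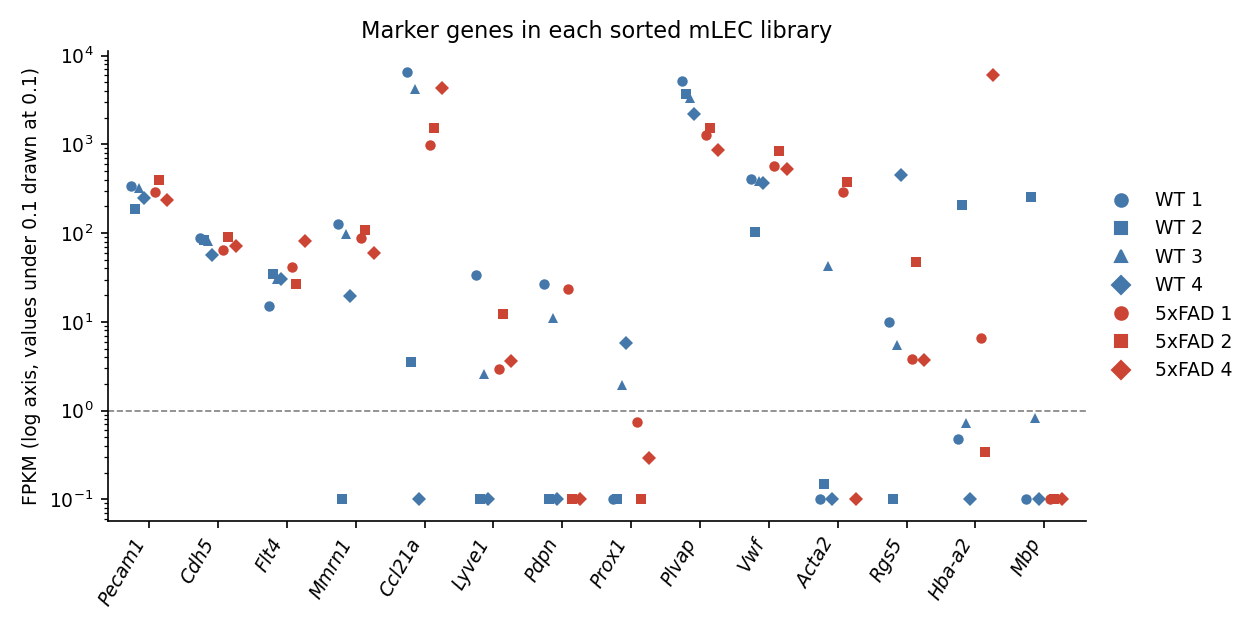
FPKM of 14 marker genes in each sorted meningeal LEC library, on a log axis with values under 0.1 drawn at 0.1 and a dashed line at 1. WT libraries are blue and 5xFAD libraries red, and the point shape gives the replicate. Pecam1 lies between 189 and 398 FPKM in all 7 libraries, while Ccl21a is 3.54 and 0 FPKM in WT replicates 2 and 4.

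Markers of other cell types were uneven too, and their part in the results below was not tested. All 12 pan-endothelial markers were measured and 11 were detected in all 7 libraries, with summed FPKM of 4155, 6510.2, 5922 and 3739.7 in WT and 5151, 5659 and 4459 in 5xFAD, Egfl7 being the most abundant. The 14 blood endothelial markers, 10 of them detected in all 7, summed to 8445, 12174, 8704 and 8174 in WT and 6426, 6680.2 and 6389 in 5xFAD. All 3 5xFAD libraries thus lay under all 4 WT libraries, a log2 difference of -0.51 (exact permutation p = 0.0571, the smallest this design of 35 splits can give; adjusted p = 0.686 over the 12 lists). Plvap, described below, carried this separation: without it the other 13 markers summed to 3264, 8503, 5329 and 5949 in WT and 5157, 5136 and 5513 in 5xFAD, with WT replicate 1 under every 5xFAD library and a log2 difference of -0.05 (exact permutation p = 0.80). Leaving out Plvap was chosen after seeing the data. Bsg was the most abundant gene of that list. Transcripts known from blood endothelium were thus abundant in all 7 libraries of this lymphatic sort.

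The mural markers of pericytes and smooth muscle, 9 genes of which none was detected in all 7, summed to 35.1, 0.23, 79.6 and 493 FPKM in WT and 430.3, 633 and 29.1 FPKM in 5xFAD, with Acta2 the most abundant and Pdgfrb at 0 in all libraries but WT replicate 4. The 13 fibroblast and arachnoid markers summed to 227, 185, 77.1 and 234 FPKM in WT and 282, 110.1 and 48.9 FPKM in 5xFAD. The most abundant was Dcn, while Col1a1 and Pdgfra, the defining fibroblast genes, were at or near 0 in every library. Of 12 macrophage markers 6 had a count of 0 in all 7 libraries, Ptprc (the gene of CD45, against which the sort selected) among them, and the sums were 0.03, 0, 63.4 and 70.2 FPKM in WT and 0.55, 14.0 and 15.01 FPKM in 5xFAD, with Lyz2 the most abundant. Of 8 neutrophil markers 7 were at 0 throughout, and the eighth, Ltf, reached 1.48 FPKM in 5xFAD replicate 1 alone.

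Lymphocyte markers, 6 of 9 at 0 throughout, summed to 0, 0, 173 and 12.01 FPKM in WT and 0.09, 10.7 and 34.5 FPKM in 5xFAD, with the antibody light chain gene Igkc the most abundant. The 5 red blood cell markers summed to 0.67, 511, 0.94 and 18.1 FPKM in WT and 46.7, 0.46 and 12368 FPKM in 5xFAD, with Hba-a2, uncertain as a near-identical copy of Hba-a1, the most abundant. The high libraries for haemoglobin, WT replicate 2 and 5xFAD replicate 4, were in opposite groups. Neuronal markers (7 genes, Stmn2 the most abundant) summed to 0, 0.23, 20.7 and 0.02 FPKM in WT and 0.05, 7.01 and 0 FPKM in 5xFAD. Glial markers, 4 of 7 at 0 throughout, summed to 0, 260.1, 0.83 and 0 FPKM in WT and at most 0.03 FPKM in 5xFAD, with Mbp the most abundant. Of 6 choroid and pineal markers only Ttr was counted, at 563 FPKM in WT replicate 2 and at most 83.0 FPKM elsewhere. The exact permutation p of these 9 lists of other cell types lay between 0.457 and 0.971, and the adjusted p was 0.971 for each.

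WT replicate 2 therefore stood apart by high Mbp and Ttr and by almost no Mmrn1, and 5xFAD replicate 4 by the most haemoglobin, which WT replicate 2 also held. WT replicates 2 and 4 shared the lack of Lyve1 and the near absence of Ccl21a, while Pdpn was at 0 in 5xFAD replicates 2 and 4 as well. WT replicate 4 held the most Rgs5 and also the most Prox1. WT replicates 1 and 2 also held fewer genes than the others. Genes at 1 FPKM or more numbered 4015, 4284, 7325 and 6592 in WT (5554 ± 1653, SD, n = 4) and 7368, 6996 and 6040 in 5xFAD (6801 ± 685, SD, n = 3). The 5xFAD mean was 1247 genes higher, with groups that overlapped (exact permutation p = 0.343, two-sided). Without 1 library at a time the difference lay between 734 (without WT replicate 1) and 1838 genes (without WT replicate 3), and it was 1131 without WT replicates 2 and 4. Library composition showed no separation either: the share of counts from mitochondrially encoded genes was 1.37, 1.35, 0.562 and 2.84% in WT and 0.804, 0.989 and 2.45% in 5xFAD (exact permutation p = 0.8).

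Counts of 0, as dropout (the loss of a transcript from a small-input library) would give, were widespread, and their cause was not tested. Only 1993 of the 7217 tested genes (27.6%) were detected in all 7 libraries, and 3799 (52.6%) had a count of 0 in at least 1. Of the tested genes, 2062 (28.6%) had a count of 0 in some library while their median in the others was at least 10 FPKM, so a 0 was not confined to genes of low level. Of 20 housekeeping genes 17 were detected in all 7 libraries. Tbp, a basal transcription factor, was not, with 86.8, 0, 18.6 and 44.5 FPKM in WT and 52.0, 45.8 and 0.26 FPKM in 5xFAD. The biological coefficient of variation was 1.79 over the tested genes and 0.612 over those detected in all 7, beside 0.347 over 13974 genes in the whole meninges of the same genotypes. Pearson correlations of log2(FPKM + 1) across genes, which are not independent replicates, were 0.454 to 0.604 between WT libraries and 0.594 to 0.682 between 5xFAD libraries. A count of 0 allows up to 3 counts in a library, and such limits cover counting error alone, since reads copied in PCR are not independent molecules.

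**Figure D2:**
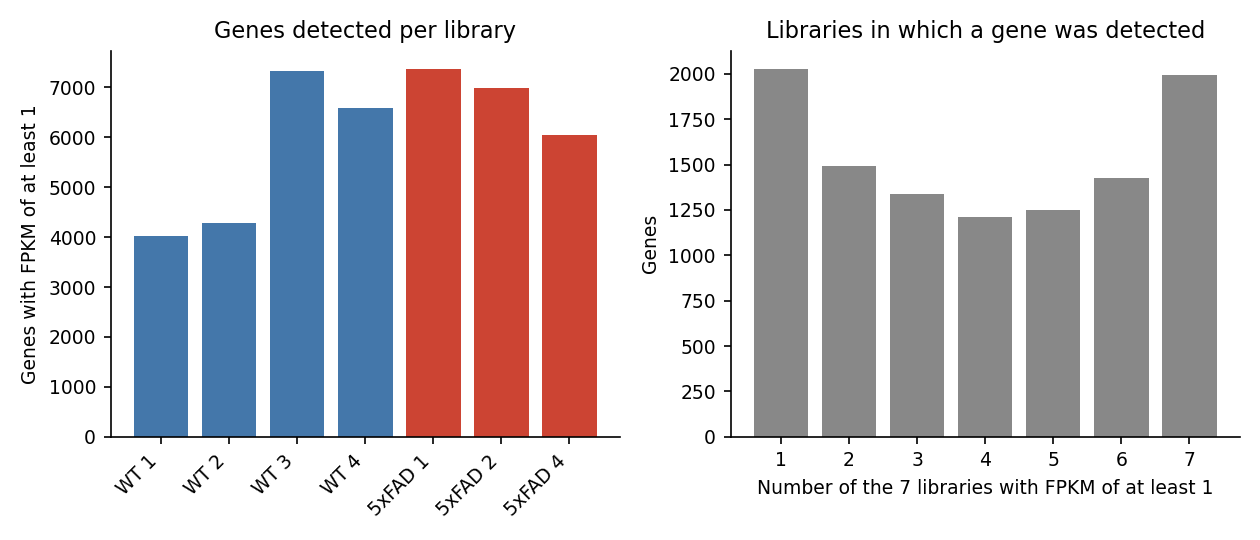
Left, number of genes at 1 FPKM or more in each library (WT blue, 5xFAD red). Right, number of genes by how many of the 7 libraries detected them at that level, with 1993 genes in all 7 and 2026 in 1 library alone.

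Set against this spread, all 3 5xFAD libraries had lower values than any WT library of the heat shock gene Hspa1a, the immediate early gene Junb and the blood endothelial gene Plvap, and higher values of Sncg, Slfn5 and Lrrc8a. These genes were picked because their groups separated. No gene passed the edgeR test. Its quasi-likelihood test called 0 of 7217 genes (percent called 0) at an adjusted p under 0.05 and at least 2-fold, with 154 genes at an unadjusted p under 0.05, 50 higher and 104 lower in 5xFAD, a balance that turned under several alternatives. Those 154 are a smaller share of the tested genes than the 0.05 that would pass if no gene differed and the p were exact. The smallest adjusted p was 0.298, for Plbd2. The count was also 0 without WT replicates 2 and 4, a choice made after seeing the data, and without 5xFAD replicate 4, with 279 (157 higher and 122 lower) and 123 genes (40 and 83) at an unadjusted p under 0.05. The number at an unadjusted p under 0.05, 154 with all 7 libraries, was 508 without WT replicate 3 (394 higher and 114 lower) and 314 without WT replicate 4 (201 and 113). Limma on log2(FPKM + 1) also called 0, with 366 genes at an unadjusted p under 0.05, 267 higher and 99 lower (0 called and 317, 224 and 93, with 0.1 added in place of 1). DESeq2, on the same counts, called 22 genes higher (0.305% of those tested) and 33 lower (0.457%), with 281 at an unadjusted p under 0.05, 78 higher and 203 lower. It gave 914 of the 7217 genes no adjusted p, so these could not be called. All 22 higher genes were detected in no WT library and 19 of the 33 lower genes in no 5xFAD library, so these 41 passed the filter on low values only through the group in which they were higher. The 10 genes that DESeq2 called among those detected in all 7 libraries were all lower in 5xFAD: Mgat1, Junb, Nr4a2, Hspa1a, Zfp36l1, Os9, Plvap, Arhgdia, Clptm1 and Oaz2. Without the filter on low values edgeR called 5 genes, all lower, Pdk2, Plbd2, Junb, Plvap and Hspa1a, and DESeq2 called 381, 243 higher and 138 lower. In that setting DESeq2 gave 4979 of 12712 genes no adjusted p. None of the 381 was detected in all 7 libraries, so the 10 genes just listed lost their call.

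Among the 1993 genes detected everywhere, 870 (43.7%) were higher in 5xFAD, the median log2 fold change was -0.11, and 68 had an unadjusted p under 0.05, 5 higher and 63 lower. A fit of these 1993 genes alone gave 112 such genes, 21 higher and 91 lower. Over all 7217 tested genes, 3595 (49.8%) were higher and the median was -0.01. By TMM-scaled counts, 61 of the 1993 genes (3.06%) were higher in every 5xFAD library than in every WT library and 75 (3.76%) were lower. A gene unrelated to genotype would separate fully in a given direction in 1 of the 35 splits of these libraries. Counts near these can therefore arise without any difference between the groups. Over all tested genes these were 301 (4.17%) and 111 (1.54%). The balance depended on the measure: with FPKM as deposited the counts were 115 higher and 61 lower, of which 60 and 53 were shared with the first counts. The 75 lower genes had a median log2 fold change of -1.46, with 41 at an unadjusted p under 0.05, and the 61 higher genes one of 0.91, with 3. Without 1 library at a time the counts were 84 to 161 higher and 108 to 197 lower, and without WT replicates 2 and 4 they were 196 and 254, as fewer libraries had to be kept apart. The 10 lower and 9 higher genes with the smallest p are described next, as levels first, and their separation is what chose them.

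Hspa1a (ENSMUSG00000091971, chromosome 17, 34969190 to 34972156), an inducible HSP70 chaperone of heat shock and protein stress, had 4689.8, 5205, 6735 and 6119 FPKM in WT and 1982, 2713 and 2689 FPKM in 5xFAD. The lowest WT library was well over the highest 5xFAD library, with means of 5687 ± 915 (SD, n = 4) and 2461 ± 415 FPKM (SD, n = 3). Its log2 fold change was -1.32 ± 0.22 (SE), with adjusted p = 0.553 in edgeR and a range of 1.52e-08 to 1.00 over 18 alternatives. Hspa1b, a copy nearly identical in sequence, had 21.8, 35.6, 128 and 65.0 FPKM and 82.6, 99.8 and 53.2 FPKM with overlapping groups, so how reads were shared between the copies is uncertain. Whole WT meninges, in a separate table, averaged 6.33 FPKM of Hspa1a.

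Junb (ENSMUSG00000052837, chromosome 8, 84974484 to 84978718), an AP-1 subunit and immediate early gene, had 1829.8, 4445, 3699 and 2068 FPKM in WT and 455, 996 and 577 FPKM in 5xFAD. No 5xFAD library reached the lowest WT library, and the log2 fold change was -2.29 ± 0.44 (SE; edgeR adjusted p = 1.00, 1.06e-06 to 1.00 over 18 alternatives). Without WT replicates 2 and 4 it was -2.27 for Junb and -1.46 for Hspa1a. Nr4a2 (ENSMUSG00000026826, chromosome 2, 57106830 to 57124003), an immediate early orphan nuclear receptor, had 144, 299, 55.8 and 62.6 FPKM in WT and 13.7, 10.6 and 1.86 FPKM in 5xFAD, a log2 fold change of -4.01 ± 0.98. WT replicates 1 and 2 had the highest levels and 5xFAD replicate 4 the lowest. Zfp36l1 (ENSMUSG00000021127, chromosome 12, 80107754 to 80113013), which binds AU-rich elements and speeds mRNA decay, had 631, 595, 989 and 675 FPKM in WT and 239, 320.0 and 222 FPKM in 5xFAD, -1.61 ± 0.35 on the log2 scale. The highest 5xFAD library of Zfp36l1, replicate 2, lay far under the lowest WT library.

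Plvap (ENSMUSG00000034845, chromosome 8, 71497765 to 71511752) encodes the protein of the diaphragms that close the fenestrae and caveolae of permeable endothelium. It had 5181, 3672, 3375 and 2226 FPKM in WT and 1268, 1545 and 876 FPKM in 5xFAD, means of 3614 ± 1217 (SD, n = 4) and 1229.6 ± 336 FPKM (SD, n = 3). The groups did not overlap, WT replicate 4 being the closest to 5xFAD, and the log2 fold change was -1.70 ± 0.37 (SE; edgeR adjusted p = 1.00, 8.94e-06 to 1.00 over 18 alternatives). It was -2.08 without WT replicates 2 and 4. The sum of the other 13 blood endothelial markers, given above, overlapped between groups, and the part of blood endothelial content in the level of Plvap was not tested.

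A further 5 genes were lower in every 5xFAD library. Mgat1 (ENSMUSG00000020346, chromosome 11, 49244191 to 49263030), which starts complex N-glycans in the Golgi, had 65.2, 146, 97.0 and 96.4 FPKM in WT and 5.61, 2.12 and 11.7 FPKM in 5xFAD, with a log2 fold change of -4.10 ± 0.91 (SE). Os9 (ENSMUSG00000040462, chromosome 10, 127095650 to 127121131), a lectin of endoplasmic reticulum quality control, had 84.4, 157, 67.6 and 100.3 FPKM in WT and 24.8, 9.24 and 7.32 FPKM in 5xFAD, -3.07 ± 0.81 on the log2 scale. For both genes the 5xFAD libraries held a small fraction of the WT level. Arhgdia (ENSMUSG00000025132, chromosome 11, 120578104 to 120581624), which holds small GTPases inactive in the cytosol, had 528, 231, 409 and 269.7 FPKM in WT and 51.2, 128 and 27.5 FPKM in 5xFAD (-2.54 ± 0.65). Clptm1 (ENSMUSG00000002981, chromosome 7, 19631571 to 19665033), a membrane protein, had 115, 62.2, 92.5 and 72.6 FPKM in WT and 13.0, 15.2 and 27.1 FPKM in 5xFAD (-2.35 ± 0.61). Hk1 (ENSMUSG00000037012, chromosome 10, 62268855 to 62379908), the hexokinase that commits glucose to glycolysis, had 108, 149, 74.0 and 76.5 FPKM in WT and 6.39, 28.2 and 28.7 FPKM in 5xFAD (-2.49 ± 0.71). In each of these 5 genes the highest 5xFAD library stayed under the lowest WT library, the adjusted p in edgeR was 1.00, and DESeq2 called all but Hk1, though none without the filter on low values.

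Among genes detected in all 7 libraries, those higher in every 5xFAD library differed by less. Sncg (ENSMUSG00000023064, chromosome 14, 34370274 to 34374789), gamma-synuclein, had 139, 128, 223 and 216 FPKM in WT and 475, 824 and 289.6 FPKM in 5xFAD, a log2 fold change of 1.48 ± 0.55 (SE). Slfn5 (ENSMUSG00000054404, chromosome 11, 82951349 to 82964840), a member of the interferon-inducible Schlafen family, had 9.90, 3.27, 4.87 and 17.2 FPKM in WT and 54.8, 35.8 and 41.0 FPKM in 5xFAD (2.19 ± 0.82). The lowest 5xFAD library of Slfn5 was about double the highest WT library, WT replicate 4. Lrrc8a (ENSMUSG00000007476, chromosome 2, 30237715 to 30263790), the essential subunit of the volume-regulated anion channel, had 193, 168, 443 and 520.2 FPKM in WT and 699, 638 and 681 FPKM in 5xFAD (0.94 ± 0.40). Its 5xFAD values were close together and its WT values fell into a low pair, replicates 1 and 2, and a high pair. In the main fit these 3 were the only higher genes of the 61 with an unadjusted p under 0.05, and the edgeR adjusted p of each was 1.00. In the edgeR fit of genes detected in all 7 libraries alone, Lrrc8a had an unadjusted p of 0.052. Cct5, Ppfibp1, Prr13, Lamp1 and Rpl10 were under 0.05 there. Without WT replicates 2 and 4 the log2 fold changes of Sncg, Slfn5 and Lrrc8a were 1.30, 2.24 and 0.85.

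Cct5 (ENSMUSG00000022234), a subunit of the chaperonin that folds actin and tubulin, had 15.6, 63.1, 129 and 119 FPKM in WT and 178, 229 and 325 FPKM in 5xFAD and an unadjusted p of 0.057. Ppfibp1 (ENSMUSG00000016487), a liprin, had 2.80, 11.4, 14.1 and 40.7 FPKM in WT and 84.7, 68.7 and 56.9 FPKM in 5xFAD (1.87 ± 0.87). WT replicate 1 had by far the lowest level of both. Prr13 (ENSMUSG00000023048) had 209, 348, 247 and 252 FPKM in WT and 544, 405 and 591 FPKM in 5xFAD (0.91 ± 0.42), and Mrtfb (ENSMUSG00000009569), a coactivator of serum response factor, 21.1, 45.2, 19.7 and 61.6 FPKM and 81.1, 74.4 and 93.7 FPKM (0.94 ± 0.49). Lamp1 and Rpl10 are given with their groups. All 19 genes kept their direction under all 18 alternatives, and 9, all lower, were called under at least 1 of them. Since the choice of genes fixed their direction, this is no sign of stability.

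**Figure D3:**
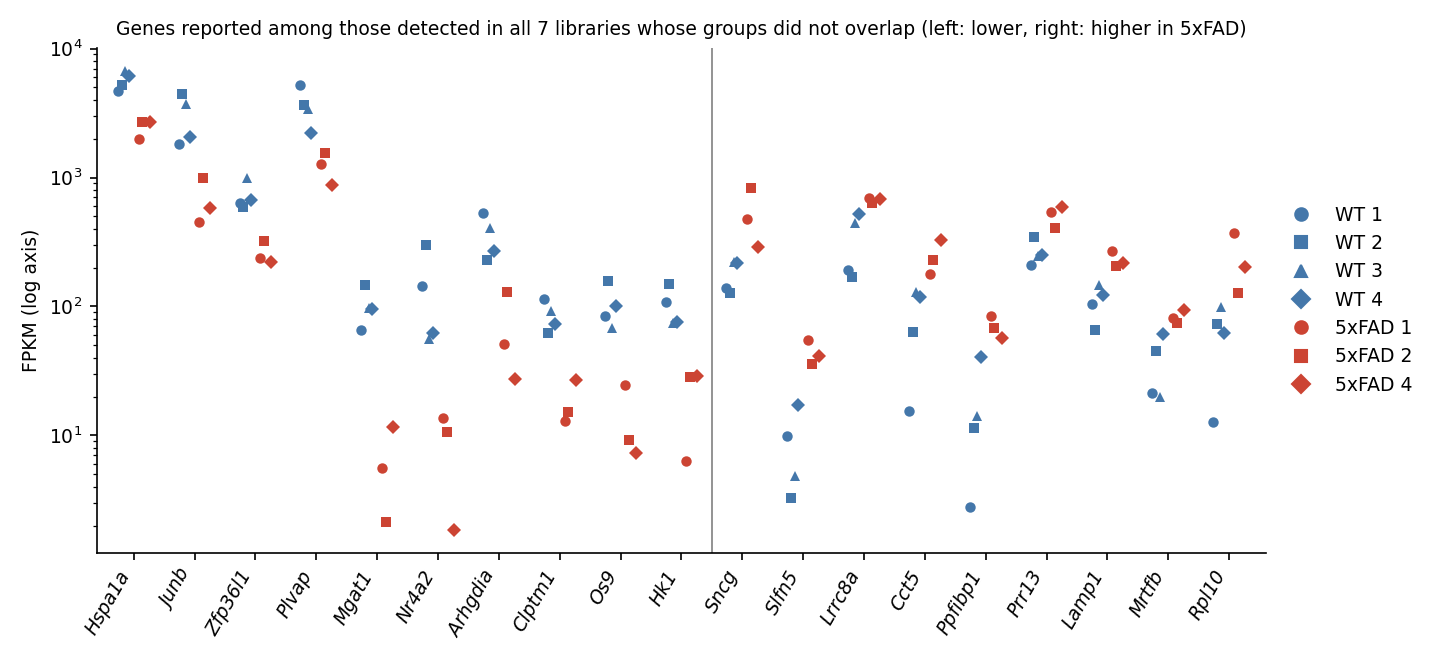
FPKM on a log axis of the 10 lower (left of the line) and 9 higher (right) genes with the smallest unadjusted p among genes detected in all 7 libraries whose groups did not overlap. WT libraries are blue, 5xFAD libraries red, and the point shape gives the replicate. Hspa1a spans 4689.8 to 6735 FPKM in WT and 1982 to 2713 FPKM in 5xFAD.

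Some genes were detected in every 5xFAD library and counted in no WT library. They numbered 21, and 0 genes showed the opposite. Leaving out 1 library at a time gave 27 to 89 such genes and 1 to 8 of the opposite kind. Of these counts of genes found only in 5xFAD, 27 came without WT replicate 1 and 89 without 5xFAD replicate 4. Leaving out WT replicates 2 and 4 gave 84 and 20, so the counts depended on which libraries were kept. All of them passed the filter on low values only through their 5xFAD libraries. The folds given below are limits for counting error alone. They are no lower limits where a count of 0 came from dropout, which was not tested. Nup35 (ENSMUSG00000026999), a nuclear pore protein, had 68.1, 37.7 and 28.6 FPKM in 5xFAD, at least 416-fold higher than a floor of 3 counts in each WT library. Gchfr (ENSMUSG00000046814), the feedback regulator of GTP cyclohydrolase, had 31.7, 23.0 and 94.1 FPKM (at least 191-fold higher), and Agap3 (ENSMUSG00000023353) had 31.7, 11.97 and 52.7 FPKM (at least 340-fold higher). Poldip2 had 29.7, 18.5 and 30.7 FPKM (at least 314-fold) and Smad4 (ENSMUSG00000024515), the shared partner of TGF-beta and BMP receptor Smads, 1.73, 28.7 and 28.5 FPKM (at least 328-fold). 5xFAD replicate 1 was the low one for Smad4. Tmem126b, Tmem222, Tm7sf2, Cmas and Pigf had at least 230-, 138-, 79.3-, 139- and 64.2-fold higher levels. All 10 were present in whole WT meninges, at 8.62 FPKM for Smad4 and 68.5 FPKM for Tmem222, and their edgeR adjusted p was 1.00.

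Transcripts of heat shock and the immediate early response are known to appear when tissue is digested at body temperature, and all 22 genes of that list were tested, 21 of them detected in all 7 libraries. Of the 22, 14 were lower and 8 higher in 5xFAD, with a median log2 fold change of -0.12 beside -0.01 over all tested genes. For the 21 detected in all 7 libraries the median was -0.18, beside -0.11 over all genes so detected. For comparison with the counts of each list, 49.8% of all tested genes were higher in 5xFAD, and 43.7% of those detected in all 7. An unadjusted p under 0.05 was found for 154 of the 7217 tested genes, 50 higher and 104 lower. Of the 1993 detected in all 7 libraries, 68 had one, 5 higher and 63 lower. For this and the other gene lists, the range of the median over 18 alternatives is given as it stands and relative to the median of all genes, which some alternatives shift; here it was -0.35 to 0.08, and -0.84 to -0.06 relative to all genes. The part of the digestion in these values was not tested. An unadjusted p under 0.05 was found for 5, all lower: Hspa1a and Junb, described above, and Egr1, Jun and Zfp36. Egr1 had 239.9, 1477, 524 and 657 FPKM in WT and 128, 369 and 200.4 FPKM in 5xFAD (-1.80 ± 0.61 on the log2 scale), and Jun had 287, 912, 308 and 659 FPKM and 117, 234 and 351 FPKM (-1.32 ± 0.53). Both were highest in WT replicate 2 and overlapped between groups. Fos, the partner of Jun and Junb in AP-1, had 1388, 2323, 2991 and 1384 FPKM in WT and 1478, 1891 and 2471 FPKM in 5xFAD and so did not share the lower values of Junb. Nr4a1, a relative of Nr4a2, had 554, 1352, 813 and 925 FPKM and 356, 798 and 188 FPKM (-1.13 ± 0.51), again overlapping. The chaperone Hsp90aa1 went the other way, with 694, 549, 766 and 908 FPKM in WT and 1242, 1278 and 1117 FPKM in 5xFAD (0.43 ± 0.32), every 5xFAD library above every WT library. The constitutive Hspa8, among the most abundant genes of all, had 6276, 4979.7, 5874 and 5165 FPKM and 5818, 5410.3 and 7605 FPKM. In whole WT meninges, prepared without sorting and listed in another table, Fos averaged 35.9 FPKM, Atf3 7.93 FPKM and Egr1 46.3 FPKM.

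Of the 14 blood endothelial markers 13 were tested, 3 with higher and 10 with lower values in 5xFAD, and their median log2 fold change was -0.39 (-0.38 without Plvap) beside -0.01 over all tested genes. Besides Plvap, Kdr and Slc2a1 had an unadjusted p under 0.05. Kdr (ENSMUSG00000062960), the main VEGF-A receptor, had 204, 232, 39.8 and 146 FPKM in WT and 30.9, 19.0 and 62.6 FPKM in 5xFAD (-2.18 ± 0.68). WT replicate 3 was as low as the 5xFAD libraries, so the groups overlapped. Slc2a1 (ENSMUSG00000028645), the glucose transporter of brain endothelium, had 229.7, 802, 360.0 and 417 FPKM in WT and 305, 108 and 285 FPKM in 5xFAD (-1.17 ± 0.51), and the efflux pump Abcb1a had 40.7, 172, 48.6 and 69.6 FPKM and 31.7, 20.7 and 45.3 FPKM (-1.46 ± 0.66). Both were highest in WT replicate 2, and both separated the groups by TMM-scaled counts but not in FPKM, where WT replicate 1 was as low as 5xFAD. In WT replicate 2 Mfsd2a, a lipid transporter of the blood-brain barrier, also stood at 102 FPKM, and it was at or near 0 in the other 6 libraries. Not all blood endothelial genes were lower: the clotting factor Vwf had 406, 104, 392 and 364 FPKM in WT and 574, 850.3 and 524 FPKM in 5xFAD (0.63 ± 0.45), and Ackr1, a chemokine receptor of venules, 364, 0.3, 237 and 473 FPKM and 1014, 368 and 313 FPKM. Flt1 had 135, 163, 119 and 217 FPKM and 121, 145 and 128 FPKM, with groups that overlapped.

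Genes of VEGF-C, angiopoietin and Notch signalling govern the growth and identity of lymphatic vessels. Of 30 measured, 24 were tested, 11 higher and 13 lower, none called, with a median of -0.32 (range -0.42 to 0.11, and -0.83 to -0.07 relative to all genes). Only Kdr had an unadjusted p under 0.05. Adm, the vasoactive peptide adrenomedullin, was lower by TMM-scaled counts in every 5xFAD library, with 39.5, 56.1, 44.4 and 62.1 FPKM in WT and 40.8, 22.5 and 2.44 FPKM in 5xFAD (-1.31 ± 1.44), but in FPKM 5xFAD replicate 1 slightly exceeded WT replicate 1. S1pr1, the sphingosine-1-phosphate receptor, had 288, 238, 265 and 402 FPKM in WT and 216, 213 and 342 FPKM in 5xFAD, and Nrp1, a VEGF co-receptor, 109, 313, 43.1 and 263 FPKM and 179, 122 and 51.9 FPKM. Neither separated the groups.

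Endothelial junction and adhesion genes were 30 in number, of which 23 were tested, 11 higher and 12 lower, with a median of -0.04 (range -0.26 to 0.18, and -0.83 to 0.10 relative to all genes). Cdh5 (VE-cadherin), the core of adherens junctions, had 87.6, 83.0, 82.0 and 57.3 FPKM in WT and 65.1, 89.8 and 71.5 FPKM in 5xFAD (-0.17 ± 0.48). Cldn5, the main endothelial claudin, ranged more widely, at 159, 2048, 1363 and 503 FPKM and 604, 1899.7 and 1078 FPKM (0.09 ± 0.74). Both groups held high and low libraries of each gene. Besides Plvap, 2 members had an unadjusted p under 0.05. Jup (plakoglobin) had 238, 47.6, 233 and 124 FPKM in WT and 76.0, 27.3 and 32.6 FPKM in 5xFAD (-1.90 ± 0.72), and the gap junction protein Gja1 had 444, 327, 109 and 232 FPKM and 125, 103 and 154 FPKM (-1.26 ± 0.52). WT replicate 2 of Jup and WT replicate 3 of Gja1 fell within the 5xFAD range. Icam1, the leukocyte adhesion molecule, was abundant in both groups, which overlapped, with 2576, 1086, 3078 and 2465 FPKM and 2096, 3659 and 2154 FPKM.

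Cytosolic ribosomal protein genes were, of the 18 gene lists, the one with the largest share of members higher in 5xFAD. Of 86 measured, 83 were tested, 71 with higher and 12 with lower values, none with an unadjusted p under 0.05, and the median log2 fold change was 0.37 beside -0.01 over all tested genes. Its range was -0.04 to 0.78, and -0.15 to 0.57 relative to all genes. It was -0.04 without WT replicates 2 and 4, 0.24 and 0.16 without each of these alone and 0.62 without WT replicate 3, so its size depended on single libraries. Relative to the median of all genes it was also negative by limma on log2(FPKM + 0.1), at -0.15, and with a replicate block, at -0.03. Ribosomal protein genes took 2.24, 1.54, 3.22 and 1.49% of counts in WT (2.12 ± 0.81%, SD, n = 4) and 3.44, 3.15 and 2.44% in 5xFAD (3.01 ± 0.515%, SD, n = 3). WT replicate 3 lay among the 5xFAD libraries, and the exact permutation p was 0.171. Rps14 had 1726, 1243, 2989 and 1271 FPKM in WT and 3508, 2735 and 2981 FPKM in 5xFAD (0.58 ± 0.38). Of the 80 detected in all 7 libraries, 8 were higher in every 5xFAD library (Rpl7, Rpl10, Rpl19, Rpl21, Rpl24, Rpl31, Rpl35 and Rpl36a) and 1, Rpl5, was lower, beside 3.06% and 3.76% of all 1993 genes detected in all 7. Rpl10 (ENSMUSG00000008682, chromosome X, 74270812 to 74273135) had 12.6, 72.8, 98.7 and 62.8 FPKM in WT and 368, 126 and 202 FPKM in 5xFAD (1.83 ± 0.97), and Rpl21 had 211, 171, 262 and 185 FPKM and 389, 380.0 and 369 FPKM (0.76 ± 0.49). Pseudogenes nearly identical to such genes make single members uncertain.

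Of 77 tested respiratory chain and ATP synthase genes encoded in the nucleus (78 measured), 51 were higher and 26 lower, beside 49.8% of all tested genes higher. Their median was 0.19, and none had an unadjusted p under 0.05. The range was 0.02 to 0.54, and -0.29 to 0.37 relative to all genes, and on the relative scale it was negative by limma on log2(FPKM + 0.1), with a replicate block and without WT replicates 2 and 4. Of the 63 detected in all 7 libraries, 4 (Ndufa12, Atp5h, Atp5j and Atp5k) were higher in every 5xFAD library and 0 lower, beside 3.06% and 3.76% of all genes detected in all 7. Atp5j, a coupling subunit of ATP synthase, had 134, 215, 209 and 183 FPKM in WT and 303, 360.3 and 286 FPKM in 5xFAD (0.63 ± 0.57), and Ndufa12 of complex I had 151, 152, 275 and 195 FPKM and 345, 436 and 284 FPKM (0.83 ± 0.66). The 13 mitochondrially encoded subunits, all detected in all 7 libraries, had 4 higher and 9 lower and a median of -0.22 (range -0.78 to 0.05, and -1.46 to 0.13 relative to all genes). Their summed FPKM was 14004, 13167, 5280.4 and 30359 in WT and 7714, 9707 and 24569 in 5xFAD, so replicate 4 of each group held the most. Among 26 tested genes of mitochondrial dynamics, import and quality control, 13 were higher and 13 lower, with a median of 0.04 (range -0.23 to 0.37, and -0.45 to 0.37 relative to all genes). Pink1, a kinase of mitochondrial quality control, was the only one with an unadjusted p under 0.05, lower at 129, 206, 43.2 and 28.3 FPKM in WT and 6.82, 59.5 and 14.4 FPKM in 5xFAD (-2.45 ± 1.09). Its groups overlapped, with WT replicates 3 and 4 under 5xFAD replicate 2. Tomm20, a receptor of the outer membrane import pore, had 29.3, 50.9, 111 and 40.3 FPKM in WT and 118, 156 and 88.9 FPKM in 5xFAD (0.65 ± 0.77) and separated the groups on TMM-scaled counts though not in FPKM. The direction of the superoxide dismutase Sod2 differed between counts and FPKM, and the cause was not tested. It was lower in every 5xFAD library by TMM-scaled counts (-0.38 ± 0.42), while its mean FPKM was higher in 5xFAD, with 69.5, 69.2, 198 and 85.1 FPKM in WT and 162, 194 and 49.5 FPKM in 5xFAD.

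Of 25 tested glycolysis and TCA cycle genes, 10 were higher and 15 lower, beside 49.8% of all tested genes higher. Their median was -0.20 (range -0.69 to -0.02, and -1.22 to -0.09 relative to all genes). Hk1, described above, and Pkm had an unadjusted p under 0.05. Pkm, the pyruvate kinase of the last step of glycolysis, had 489, 1299, 515 and 494 FPKM in WT and 367, 381 and 348 FPKM in 5xFAD (-1.03 ± 0.44), with WT replicate 2 far above the rest and every 5xFAD library under every WT library. Gapdh had 647, 276, 895 and 442 FPKM and 598, 589 and 422 FPKM (-0.20 ± 0.46) and Aldoa 1154, 440.3, 948 and 428 FPKM and 662, 643 and 397 FPKM (-0.53 ± 0.48), both with overlapping groups. Mdh2 of the TCA cycle had a higher mean in 5xFAD, with overlapping groups, 387, 420.0, 807 and 343 FPKM against 808, 767 and 478 FPKM (0.26 ± 0.40).

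Endocytosis, lysosome and amyloid handling genes bear on how endothelium takes up and breaks down proteins. All 30 were measured and 25 tested, 10 higher and 15 lower, with a median of -0.31 (range -0.48 to 0.38, and -0.73 to -0.11 relative to all genes). Ctsd (ENSMUSG00000007891), the lysosomal aspartyl protease cathepsin D, had 634, 319, 249.7 and 250.2 FPKM in WT and 118, 119 and 127 FPKM in 5xFAD, a log2 fold change of -1.73 ± 0.50. Its 5xFAD libraries were close together and under every WT library. Lamp1 (ENSMUSG00000031447, chromosome 8, 13159161 to 13175338), a glycoprotein of the lysosomal membrane, went the other way, with 104, 65.5, 148 and 123 FPKM in WT and 269, 208 and 219 FPKM in 5xFAD (0.97 ± 0.46). Cavin1, needed to form caveolae, had 961, 689.7, 339 and 749.7 FPKM in WT and 227, 426 and 289 FPKM in 5xFAD (-1.25 ± 0.41), with WT replicate 3 inside the 5xFAD range. Apoe, the lipid carrier and the most abundant gene of the list, had 7779, 2253, 5369 and 3120.5 FPKM in WT and 3223, 5889 and 3094 FPKM in 5xFAD (-0.33 ± 0.46), and Clu, another amyloid-binding apolipoprotein, 505, 395, 649 and 313 FPKM and 1126, 747 and 185 FPKM. Both overlapped between groups.

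App and Thy1, related to the transgenes, were read as the mouse genes of the table, and whether human transgene reads reach them was not tested. App had 196, 445, 129.7 and 319 FPKM in WT and 154, 144 and 199.9 FPKM in 5xFAD (-0.81 ± 0.47), so that all 3 5xFAD libraries lay within the WT range. Thy1 had 0, 0, 13.3 and 0 FPKM and 0.35, 2.47 and 6.74 FPKM. Thy1, whose promoter drives the transgenes, was thus near 0 in all libraries but WT replicate 3 and 5xFAD replicates 2 and 4. Of 14 genes of amyloid precursors and secretases 12 were tested, 4 higher and 8 lower, with a median of -0.81 (range -0.90 to -0.28, and -1.15 to -0.40 relative to all genes). Aplp2, an App paralogue, had 1485, 302, 442 and 521 FPKM in WT and 228, 413 and 239.6 FPKM in 5xFAD (-1.30 ± 0.55) and was the only member with an unadjusted p under 0.05. WT replicate 1 held the highest Aplp2, and WT replicate 2 lay under 5xFAD replicate 2.

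Interferon-stimulated genes showed no common direction, 8 higher and 8 lower of 16 tested, with a median of -0.08 (range -0.20 to 1.29, and -0.22 to 0.47 relative to all genes). Ifitm3, an antiviral membrane protein, was at 2659, 2833, 5215 and 2683 FPKM in WT and 4868, 3183 and 3164 FPKM in 5xFAD. Antigen presentation genes had lower values in 11 of 13 tested, with a median of -0.48 (range -1.05 to -0.11, and -1.13 to -0.20 relative to all genes), and none had an unadjusted p under 0.05. B2m, the light chain of MHC class I, had 3839, 3398, 3436 and 3906 FPKM in WT and 3314, 3704 and 3021 FPKM in 5xFAD (-0.24 ± 0.24). It was lower in every 5xFAD library by TMM-scaled counts and overlapped in FPKM. H2-D1, an MHC class I heavy chain, had 2063, 1361, 2973 and 1551 FPKM in WT and 1574, 2099 and 1178 FPKM in 5xFAD (-0.48 ± 0.34). The MHC class II invariant chain Cd74 was scattered, at 0.16, 0.4, 1507 and 209 FPKM in WT and 199, 504 and 4.52 FPKM in 5xFAD, with WT replicate 3, which also had the highest Igkc, far above the rest.

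Of 24 TGF-beta and BMP signalling genes 21 were tested, 12 higher and 9 lower, with a median of 0.11 (range -0.03 to 0.97, and -0.16 to 0.16 relative to all genes). Smad4 was the only one with an unadjusted p under 0.05, but it was counted in no WT library and so entered the test only through its 5xFAD values. The BMP target Id3 had 391, 426, 1610.4 and 448 FPKM in WT and 1097, 695 and 925 FPKM in 5xFAD (0.21 ± 0.55), and the endothelial co-receptor Eng had 1187, 489, 471 and 376 FPKM and 313, 469 and 365 FPKM (-0.88 ± 0.47). Neither separated the groups.

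DNA repair and growth genes were mostly too sparse to read. Base excision repair had 15 of 32 genes tested, 3 of them detected in all 7 libraries, 4 higher and 11 lower, 1 of the lower at an unadjusted p under 0.05. The median was -0.61 (range -1.07 to 0.42, and -1.09 to 0.33 relative to all genes). It was -0.09 without WT replicate 4 and -0.10 without 5xFAD replicate 4, so single libraries set its size. Mismatch repair, which shares 6 members with it, had 13 of 22 tested and 1 detected in all 7, 4 higher and 9 lower (median -0.61, range -1.26 to 0.29, and -1.21 to 0.33 relative to all genes). The number of base excision repair genes detected was 10, 7, 21 and 11 in WT and 19, 15 and 13 in 5xFAD. Hmgb1, a chromatin protein of that list, had 665, 465, 472 and 512 FPKM in WT and 722, 739 and 662 FPKM in 5xFAD (0.24 ± 0.37). Nucleotide and amino acid synthesis had 10 higher and 9 lower of 19 tested, 1 of the lower at an unadjusted p under 0.05 (median 0.00, range -0.31 to 0.59, and -0.33 to 0.27 relative to all genes). The cell cycle had 7 and 7 of 14 (median -0.05, range -0.30 to 3.25, and -0.30 to 2.44 relative to all genes), the highest values being those with a replicate block. The cell cycle inhibitor Cdkn1a, at 801, 1169, 2083 and 1853 FPKM in WT and 1706, 1809 and 1699 FPKM in 5xFAD, was the most abundant cell cycle gene.

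Housekeeping genes showed no common direction. Of 20, all tested and 17 detected in all 7, 9 were higher and 11 lower, none with an unadjusted p under 0.05, with a median of -0.03 (range -0.21 to 0.21, and -0.66 to 0.18 relative to all genes). Ubb, one of the most abundant genes of all, had 16034, 21916, 21727 and 15545 FPKM in WT and 27541, 25454 and 22910.1 FPKM in 5xFAD. Among the 10 most abundant genes, Lrg1 (ENSMUSG00000037095, chromosome 17, 56119678 to 56122001), a secreted glycoprotein that promotes vessel growth through TGF-beta signalling, differed the most upward, with 2045, 896, 4986 and 1938 FPKM in WT and 9437, 4831 and 4372 FPKM in 5xFAD (log2 fold change 1.21 ± 0.52; edgeR adjusted p = 1.00). WT replicate 3 exceeded 5xFAD replicates 2 and 4, so the groups overlapped, and whole WT meninges averaged 73.0 FPKM. The ferritin subunits Ftl1 (9652, 7149, 13443 and 8682 FPKM in WT, 14475, 15020.4 and 11093 FPKM in 5xFAD) and Fth1 (5628, 3563, 5957 and 3566 FPKM and 7646, 5729 and 4066 FPKM) were abundant and overlapped as well.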

How the data were processed

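RNA of sorted meningeal LECs from 4 WT and 3 untreated 5xFAD mice had been sequenced after Smart-seq2. The table gives expected counts as the authors deposited them, whose making the methods do not describe, and FPKM, also as the authors deposited it and by the study's methods calculated with RSEM, for 22337 genes of GRCm38 (the labels give mm10), and gene positions were taken from GENCODE. Submitters' processing notes name Trimmomatic, HISAT2 and StringTie instead, and the difference could not be settled from what was deposited. Both sources name DESeq2. Of 64 value columns 30 were not used: those of hippocampus and of light-treated meninges. Light-treated LECs entered 1 alternative, and untreated meninges gave levels and spread. Total counts ran from 14231402 to 24041104.

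Genes with FPKM of at least 1 in 3 or more of the 7 libraries were tested with edgeR 4.0.16 in R 4.3.3 (TMM, quasi-likelihood test, counts rounded, Benjamini-Hochberg over 7217 genes). A call needed adjusted p under 0.05 and at least 2-fold. Alternatives were DESeq2 1.42.0, limma 3.58.1 on log2(FPKM + 1) and log2(FPKM + 0.1), median-of-ratios and upper-quartile scaling, no filter, detection in all 7 libraries, all 10 LEC libraries in 1 fit, a replicate block, and leaving out libraries. Single values per library used exact two-sided permutation tests of 35 splits (scipy 1.17.1), whose smallest p is 0.0571, so they cannot reach 0.05. Only the edgeR step was tested on simulated data: with a low spread it found genes changed by known amounts. With the common spread of all tested genes (biological coefficient of variation 1.79) it did not, so the lack of calls does not show that genes are unchanged. The smaller spread of the genes detected in all 7 libraries, 0.612, was not simulated. Marker sums used log2(summed FPKM + 1).

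Named genes were the cell markers and transgene-related genes, up to 10 in each direction with the smallest p among genes detected in all 7 libraries whose groups did not overlap, up to 10 present in 1 group and at 0 in the other, the 10 most abundant, and in each of 12 marker and 18 gene lists the 4 most abundant members and any in the other sets. Some genes of these sets are not reported here. Other genes named were chosen after their values were seen. The members and lists were chosen with earlier results of these data known.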

Additional observations from a re-analysis of the deposited data

Results flagged for a closer look

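In the WT group, 9 of 57 values checked had 1 library far from the other 3, by the gap to the nearest library divided by the group's range. For values with a normal distribution, chance gives this in about 1 of 20 groups. FPKM values with many at 0 need not follow that distribution, so this rate may not hold here, and the values are not independent. The 5xFAD group, with 3 libraries, was not tested. WT replicate 2 stood apart in blood endothelial markers (12174 against 8174 to 8704 summed FPKM, ratio 0.868), red blood cell markers (511 against 0.67 to 18.1, ratio 0.966), glial markers (260.1 against 0 to 0.83, ratio 0.997) and choroid and pineal markers (563 against 0 to 24.8, ratio 0.956). WT replicate 3 stood apart in lymphocyte markers (173 against 0 to 12.01, ratio 0.930), neuronal markers (20.7 against 0 to 0.23, ratio 0.989) and Thy1 (13.3 FPKM against 0, ratio 1). WT replicate 4 did so in mural markers (493 against 0.23 to 79.6, ratio 0.839), and WT replicate 1 in Lyve1 (34.0 FPKM against 0 to 2.56, ratio 0.925). What these libraries held beside sorted LECs was not tested.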

How the results depend on the processing

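Calls were 0 in edgeR and stayed 0 under 16 of 19 alternatives. They were 5 with no filter on low values, 55 by DESeq2 (22 higher and 33 lower) and 381 by DESeq2 with no filter (243 higher and 138 lower), and the cause was not tested. With a replicate block there were 0 calls and 166 genes at an unadjusted p under 0.05, 95 higher and 71 lower. No pairing by replicate number was seen: correlations of deviations from the group means were 7.5e-06, -0.0370 and 0.00224 between libraries of the same number. Between libraries of different numbers they ran from -0.0475 to 0.0299. With counts of 0 this widespread, such correlations cannot show that the libraries were unpaired. The median log2 fold change of all genes shifted by 0.175 with upper-quartile scaling, by 0.443 and 0.759 by limma with 1 and 0.1 added, and by 0.820 with the block. Genes detected in all 7 libraries numbered 3495 when any count above 0 sufficed. Non-overlapping genes higher in 5xFAD numbered 115 with deposited FPKM, 301 over all tested genes, 196 without WT replicates 2 and 4, and 84 to 161 without 1 library. Lower genes numbered 254 without WT replicates 2 and 4 and 108 to 197 without 1 library. The settings that leave out libraries, for these counts, and DESeq2 without a filter were chosen after seeing the data.

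Without 1 library at a time, log2 differences of marker sums ran from -0.00889 to 1.35 (lymphatic), -0.10 to 0.17 (pan-endothelial), -1.17 to 0.0871 (fibroblast and arachnoid), -1.22 to 0.90 (macrophage), -0.95 to 1.71 (lymphocyte), -0.68 to 5.85 (red blood cell), -1.16 to 0.91 (neuron) and -1.57 to 1.87 (choroid and pineal). The difference in mitochondrial share ran from -0.634 to 0.321% and that in the 10 most abundant genes from -0.453 to 0.434%. Blood endothelial sums ran from -0.57 to -0.38, but this rested on Plvap: without it the difference was -0.05, and -0.29 to 0.17 without 1 library. Mural sums stayed higher in 5xFAD, from 0.84 to 3.84. With 3 against 4 libraries and counts of 0 in 52.6% of tested genes, a difference in a gene with such counts could go undetected. No value here shows that a gene did not differ.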
